A study of Mus musculus with 6 samples.

Results

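Fibronectin, the product of mouse Fn1 (ENSMUSG00000026193, on chromosome 1), was described here through every row of the deposited transcript table that carries its symbol. There were 15 such transcripts among 33539 listed transcripts of 16358 genes. Of the 15, 14 have a reference identifier and 1, MSTRG.392.1, was assembled by the authors. The table lists only transcripts selected on a deposited fold change of at least 2 between the genotypes, in either direction, and Fn1 itself was chosen by its TPM in these libraries. Its levels are therefore given as a description, and no test on them is read as support. RNA with poly(A) tails was measured in 6 libraries of peritoneal macrophages. Of these, 3 came from wild-type (WT) mice and 3 from littermates carrying a conditional knockout of Fbxo38 in myeloid cells (cKO), named WT 1 to 3 and cKO 1 to 3. All 6 had received 20 ng/mL of IL-4 and IL-13 for 24 h, and there were no untreated libraries. The sources used here do not give the Cre driver, the deleted exons, or the age and sex of the mice, nor which libraries come from littermates.

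Fibronectin is a large secreted glycoprotein that cells assemble into fibrils and that links integrin receptors to collagens, fibrin and heparan sulphate. It is built from repeated modules of types I, II and III, and 1 gene yields many proteins by alternative splicing. The extra domains EDA and EDB are type III modules that are skipped in the soluble plasma form made by the liver and variably included in cellular fibronectin. A further region, the variable or V region, is shortened by choice between splice sites. Fibroblasts and mesothelial cells make fibronectin in the peritoneum. Resident peritoneal macrophages of the mouse are also known to express Fn1, and it is among the genes used to mark them.

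Exon structures of the listed identifiers were read from GENCODE M21. Of 17 annotated reference transcripts, 14 were listed, and the remaining 3, Fn1-204, Fn1-207 and Fn1-216, were not analysed here. The listed set contains 6 of the 7 full-length coding transcripts, which are 7680 to 8315 bases long and share 41 exons. In coding sequence they differ in the EDB exon of 273 bases, the EDA exon of 270 bases and the V exon. Counted in Fn1-201, which has 46 exons, these are exons 25, 33 and 40. The V exon has a long form of 467 bases, a middle form of 392 bases that lacks the first 75 bases, or 25 codons, and a short form of 107 bases that lacks 120 codons. Fn1-214 has EDA and the long V exon, Fn1-211 has EDA and the middle form, and Fn1-213 has EDA and the short form. Fn1-203 lacks EDA and has the long V exon, and Fn1-217 lacks EDA and has the middle form. Fn1-201 alone has EDB, together with EDA and the long V exon. The noncoding ends of the full-length transcripts also differ in length. Because these transcripts differ mainly in these stretches and ends, the division of reads among them rests on few bases. The level of each is thus less certain than their sum.

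**Figure D1:**
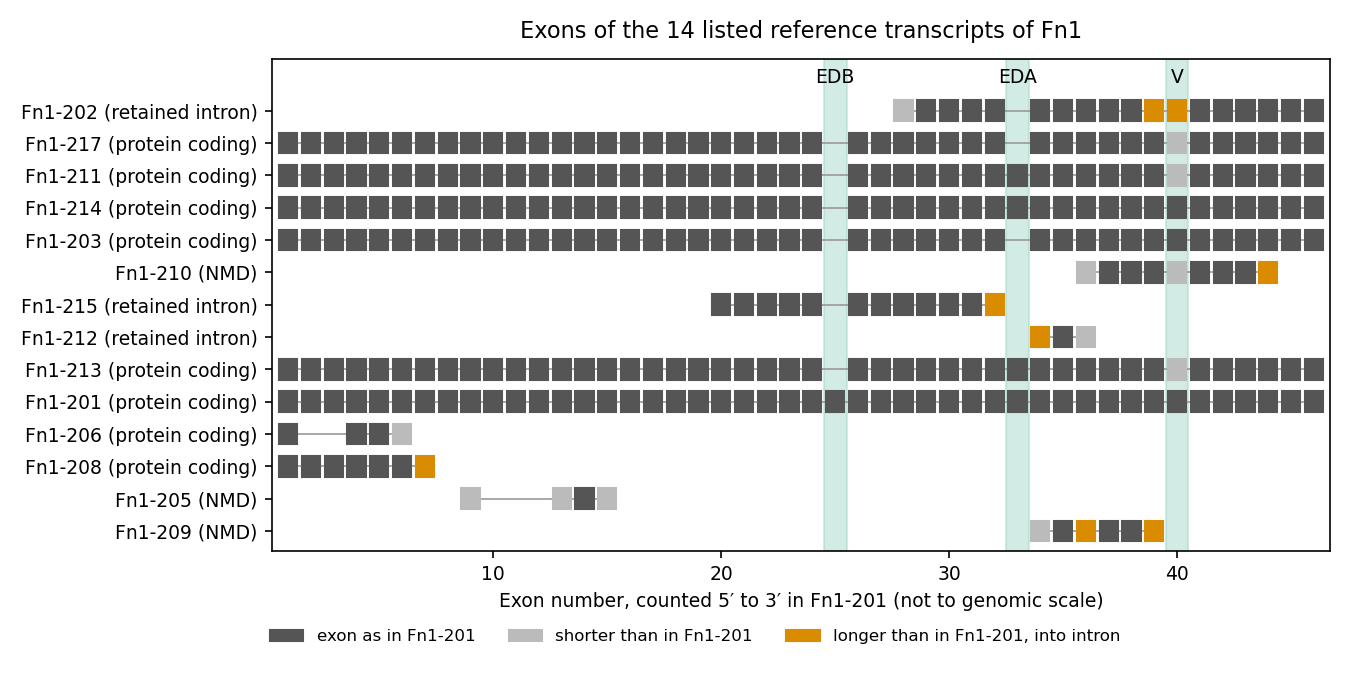
Exons of the 14 listed reference transcripts of Fn1, by exon number in Fn1-201, with transcripts ordered by mean TPM. Dark boxes are exons as in Fn1-201, light boxes are shorter and orange boxes extend into an intron. The first and last exons of Fn1-201 are drawn dark wherever a transcript overlaps them, whatever their extent. Shaded columns mark EDB, EDA and the V exon, at exons 25, 33 and 40.

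The stretches that separate the isoforms are printed below from the GENCODE M21 transcript sequences, 5′ to 3′, since the shares given later turn on them. In Fn1-201 they lie at bases 5355 to 5624 (EDA), 3987 to 4259 (EDB), 6438 to 6512 (first part of the V exon) and 5000 to 5074 (cell-binding site). The EDA exon is contained in 4 listed transcripts and the EDB exon in 1. Capitals in the first part of the V exon, which the middle form lacks, mark the codons for leucine, aspartate and valine, the site recognised by integrin alpha4-beta1. Capitals in the cell-binding site mark the codons for arginine, glycine and aspartate, the site recognised by integrins alpha5-beta1 and alphav-beta3. This stretch is present in 8 of the 14 listed reference transcripts, among them the 6 full-length coding ones and Fn1-202.
EDA exon: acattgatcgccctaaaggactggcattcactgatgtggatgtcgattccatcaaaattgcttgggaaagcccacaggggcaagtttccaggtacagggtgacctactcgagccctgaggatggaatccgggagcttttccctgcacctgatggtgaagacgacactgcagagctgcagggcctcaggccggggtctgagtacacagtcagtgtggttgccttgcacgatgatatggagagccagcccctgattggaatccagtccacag
EDB exon: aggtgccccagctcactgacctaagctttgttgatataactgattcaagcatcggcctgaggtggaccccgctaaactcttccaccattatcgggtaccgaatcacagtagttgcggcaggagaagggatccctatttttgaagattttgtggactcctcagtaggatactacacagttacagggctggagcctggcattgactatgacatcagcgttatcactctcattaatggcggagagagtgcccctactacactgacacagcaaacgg
First part of the V exon: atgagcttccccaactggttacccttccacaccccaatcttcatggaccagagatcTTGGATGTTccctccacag
Cell-binding site: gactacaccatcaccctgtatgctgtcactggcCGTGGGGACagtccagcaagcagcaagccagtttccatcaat

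The most abundant listed transcript, Fn1-202, is annotated as a retained intron. It is 4022 bases long, begins at exon 28, skips the EDA exon and keeps the intron of 626 bases between exon 39 and the V exon. The boundaries of that intron, at bases 1491 to 1550 and 2117 to 2176 of Fn1-202 and found in no other listed reference transcript of Fn1, are shown with the first pair of intron bases in capitals at its start and the last pair in capitals at its end.
Start of the retained intron: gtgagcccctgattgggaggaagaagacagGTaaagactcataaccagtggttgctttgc
End of the retained intron: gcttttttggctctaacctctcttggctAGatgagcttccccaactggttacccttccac

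The libraries differed in ways that touch every value below. Listed transcripts made up 6.57% of the TPM (transcripts per 1000000 transcripts) of WT 2 and 2.01% to 3.79% elsewhere. The Y-linked transcript Eif2s3y was listed at 0 in WT 1 and WT 2 and at 35.6 to 51.2 TPM in the other 4 libraries. Ddx3y and Uty, also Y-linked, were at 0.01 TPM or less in WT 1 and WT 2 and higher elsewhere. Xist, a marker of female cells, was at 3.83 TPM in WT 1, 43.8 TPM in WT 2 and 0 in the rest. By these genes WT 1 and WT 2 had a female pattern, and WT 3 and the cKO libraries a male one. Sex was thus uneven between the genotypes, and only WT 3 matched the cKO libraries in this respect. The part of sex in the contrasts below was not tested. The 7 listed transcripts of the targeted gene Fbxo38 had overlapping sums, 11.0 ± 1.95 TPM over the WT libraries and 7.04 ± 1.77 TPM over the cKO libraries (SD, n = 3 each). Of the 7, 4 were lower in cKO. This sum covers listed transcripts only, so it is not the level of the gene and cannot show whether the deleted exons were lost. Of 10 general macrophage markers, 4 were listed. Among them, Tyrobp, which encodes a signalling adaptor of myeloid receptors, was at 176 to 896 TPM, and Adgre1, which encodes F4/80, was at 1.12 to 12.7 TPM. Listed markers of small peritoneal macrophages and monocytes summed to at most 4.78 TPM in any library. Those of B, T, NK and dendritic cells, neutrophils, eosinophils, mast cells, platelets and endothelial cells each summed to at most 2.64 TPM. The listed part of these marker lists ran from 1 of 4 genes for eosinophils to all 6 for T cells. Markers with less than a 2-fold difference are not in the table, so low sums do not show that such cells were absent. Since TPM carry no depth, the number of reads behind a value is unknown and counting intervals cannot be formed. Nothing says that the 3 libraries of a genotype came from separate cultures beyond their labels, so p-values measure the spread between these samples.

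Summed over its 15 listed transcripts, Fn1 was at 89.1, 817 and 262 TPM in WT 1 to 3. In cKO 1 to 3 the sum was 81.6, 129 and 92.8 TPM. WT 2 was by far the highest library and WT 3 came next, while WT 1 lay within the cKO range, so the groups overlapped. The group means were 389 ± 380 TPM for WT and 101 ± 24.9 TPM for cKO (SD, n = 3 each). The WT mean was 3.84 times the cKO mean. Ranked by summed listed TPM among all listed genes, Fn1 stood between place 10, in WT 3, and place 47, in cKO 1. The spread in WT was nearly as large as its mean, with WT 2 at 9.17 times WT 1, whereas the highest cKO library was 1.58 times the lowest. Without WT 2 the WT mean was 1.73 times the cKO mean. WT 3, the only WT library with Eif2s3y above 0, was 2.03 times the highest cKO library. In bulk RNA, fewer cells of a type and less RNA per cell cannot be told apart.

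**Figure D2:**
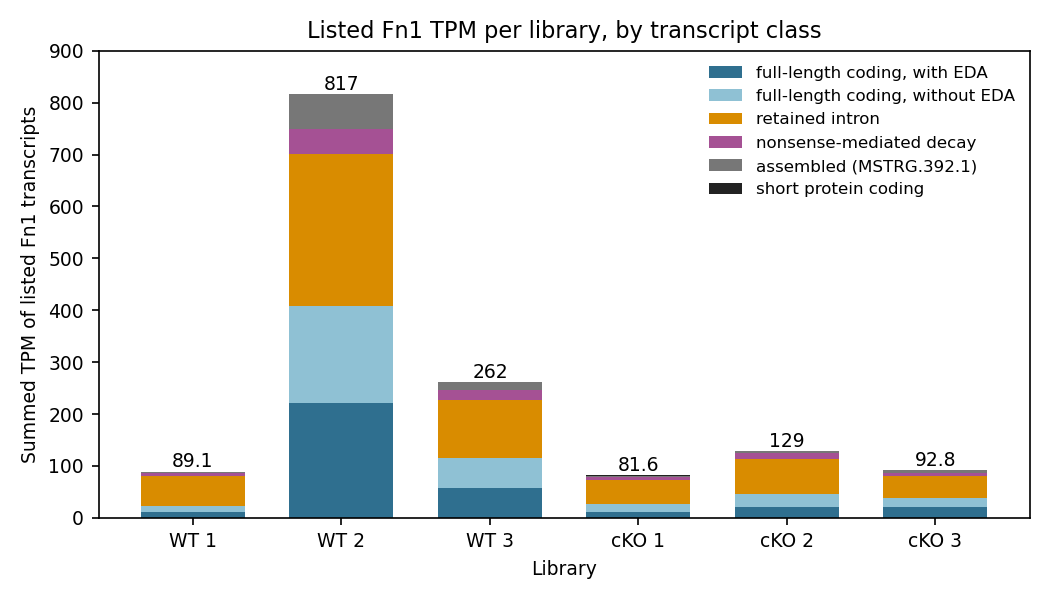
Summed TPM of the 15 listed Fn1 transcripts in each library, stacked by transcript class, with the total above each bar. WT 2 at 817 TPM and WT 3 at 262 TPM stand above the other 4 libraries, and WT 1 at 89.1 TPM lies among the cKO libraries.

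The scale of the values bears on this contrast. Tested transcripts were the 2050 at 1 TPM or more in at least 3 libraries. Their median difference (cKO minus WT) was -0.39 on the log2(TPM + 1) scale, and 0.12 without WT 2. Of them, 50.6% were lower in cKO. Since listed transcripts were selected on a fold change of at least 2 in either direction, this median lies between those lower and those higher. It is therefore no measure of a shift of all transcripts. A transcript at 1 TPM or more only in the 3 libraries of 1 genotype passes through that genotype alone. Its direction and lack of overlap then follow from this threshold. The log2 ratio of mean TPM was lower than the log2 ratio in the authors' deposited table by a median of -0.38 over 2026 transcripts. When TPM were rescaled by median ratios over the listed transcripts, with a factor of 2.71 for WT 2, the Fn1 sum was 108, 302 and 174 in WT and 143, 143 and 124 in cKO. On that scale WT 1 was the lowest library of all and the WT mean was 1.42 times the cKO mean. The factors came from listed transcripts, which were selected for a difference between the genotypes, so this scaling can remove part of the contrast itself. It moved the median difference of all tested transcripts to 0.69.

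By the authors' deposited comparison, 13 of the 15 Fn1 transcripts were listed as lower in cKO and 2 as higher, where 60.6% of all listed transcripts were lower. None of the 15 was called there at an adjusted p under 0.05, as against 0.268% of all listed transcripts and 1.51% of those that pass the filter on low values given above. Among Fn1 transcripts 0.258 was the lowest adjusted p. With the unadjusted p there were 4 under 0.05, Fn1-211, Fn1-202, Fn1-203 and Fn1-210, against 6.12% of the table. That filter left 10 Fn1 transcripts, and limma called 0 of them, as it called 0% of all 2050 tested. At an unadjusted p under 0.05, limma had 1 of the 10, Fn1-213, where 16.9% of all tested transcripts were lower at that level. All 10 had a lower mean in cKO, against 50.6% of the tested transcripts, and in 0 of the 10 did the groups stay apart, against 22.9% that were lower without overlap. The table and the choice of Fn1 used this contrast, so nothing is read from these shares.

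The 10 tested transcripts had a median log2 difference of -1.19, from -2.24 for Fn1-203 to -0.81 for Fn1-215. Relative to the median of all tested transcripts, the Fn1 median was -0.80. Rescaling by median ratios gave a median of -0.31 for Fn1 where all tested transcripts were at 0.69. Without WT 2 the Fn1 median was -0.46, with 9 of the 10 still lower and Fn1-215 at 0.02, while all tested transcripts had a median of 0.12. In each of the 10, WT 2 was the highest library and WT 3 the second highest. WT 1 lay within or below the cKO range in all 10 and below every cKO library in 6.

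**Figure D3:**
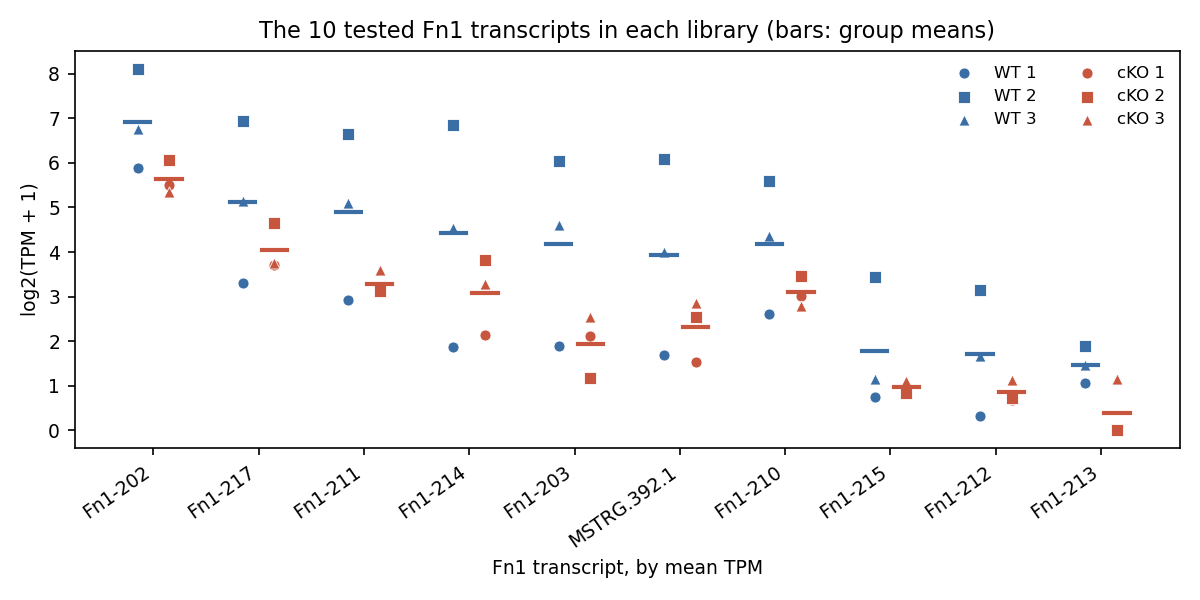
Values of the 10 tested Fn1 transcripts as log2(TPM + 1) in each library, with WT in blue, cKO in red and bars at the group means. For each transcript WT 2 is highest and WT 3 second, and WT 1 lies within or below the cKO points.

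Among the full-length coding transcripts, Fn1-217, without EDA and with the middle V exon, was the most abundant. It had 8.85, 122 and 34.1 TPM across WT 1 to 3 and 12.2, 24.3 and 12.5 TPM across cKO 1 to 3. WT 1 was the lowest library of the 6 for this isoform, and the log2 difference of the genotypes was -1.08 ± 0.94 (SE), or -0.17 without WT 2. Fn1-211, which includes EDA with the middle V exon, reached 6.62, 99.9 and 33.2 TPM in the WT libraries and 7.60, 7.69 and 11.0 TPM in the cKO libraries. The cKO libraries were close together here and WT 1 lay below each of them, with a log2 difference of -1.62 ± 0.93 (SE), or -0.74 without WT 2.

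Both coding isoforms with the long V exon and no EDB, which keep the alpha4-beta1 site, were near 3 TPM in WT 1. Fn1-214, which also includes EDA, had 2.63, 115 and 22.3 TPM across WT 1 to 3 and 3.41, 13.1 and 8.68 TPM across cKO 1 to 3. WT 2 exceeded WT 1 by 43.8-fold, the widest ratio between these libraries among the tested Fn1 transcripts. Fn1-203, which lacks EDA, reached 2.72, 64.5 and 23.4 TPM in the WT libraries and 3.30, 1.26 and 4.80 TPM in the cKO libraries. This isoform had the widest ratio of group means among the tested Fn1 transcripts, with WT at 9.68 times cKO, and with WT 1 inside the cKO range. On the log2(TPM + 1) scale the difference was -2.24 ± 1.02 (SE) for Fn1-203 and -1.34 ± 1.19 (SE) for Fn1-214. Leaving out WT 2 gave -1.31 for Fn1-203 and -0.12 for Fn1-214. Fn1-203 had a log2 fold change of -2.71 in the authors' deposited table, against -2.06 for Fn1-214, -1.91 for Fn1-211 and -1.34 for Fn1-217.

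Fn1-213, the EDA isoform with the short V exon, was low throughout. It had 1.07, 2.70 and 1.75 TPM in the WT libraries, 1.21 TPM in cKO 3 and 0 in cKO 1 and cKO 2. WT 1 fell below cKO 3, so the groups overlapped. Fn1-216, the form with the short V exon and without EDA, was not analysed here, so shares of the V forms and of EDA leave it out. The EDB isoform Fn1-201 had 3.28 TPM in WT 2, and the other 5 libraries list it at 0. Its deposited log2 fold change of -22.9 in the authors' deposited table thus rests on 1 library.

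Fn1-202, which keeps the intron before the V exon, had 58.4, 276 and 108 TPM across WT 1 to 3 and 44.5, 66.4 and 39.4 TPM across cKO 1 to 3. WT 1 lay below cKO 2, and the WT mean was 2.95 times the cKO mean, a log2 difference of -1.29 ± 0.72 (SE), or -0.69 without WT 2. WT 2 exceeded WT 1 by 4.72-fold in Fn1-202, against 13.8-fold or more in Fn1-217, Fn1-211, Fn1-203 and Fn1-214. Fn1-210, annotated as a target of nonsense-mediated decay and with exons between 36 and 44 of Fn1-201, reached 5.08, 47.2 and 19.4 TPM in the WT libraries and 7.11, 10.1 and 5.95 TPM in the cKO libraries. WT 1 was the lowest library for it, and the log2 difference was -1.09 ± 0.80 (SE), or -0.38 without WT 2. The other retained intron transcripts, Fn1-215 and Fn1-212, lay at 0.24 to 9.81 TPM, each highest in WT 2.

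The assembled transcript MSTRG.392.1, whose exons the sources used here do not give, had 2.24, 67.4 and 15.1 TPM across WT 1 to 3 and 1.87, 4.84 and 6.25 TPM across cKO 1 to 3. WT 2 and WT 3 were its highest libraries, and WT 1 lay within the cKO range. The 4 remaining transcripts, Fn1-206, Fn1-208, Fn1-205 and Fn1-209, are 426 to 1350 bases long and were at 0.51 TPM or less. Fn1-206 was above 0 in WT only, at 0.51, 0.19 and 0.49 TPM, and Fn1-208 and Fn1-205 were those listed as higher in cKO, both at 0.32 TPM or less.

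The EDA, V exon and Fn1-202 shares all overlapped between the genotypes. EDA-containing isoforms made up 47.1%, 54.2% and 49.9% of the listed full-length coding TPM in WT 1 to 3. In cKO 1 to 3 they made up 41.6%, 44.9% and 54.8%. The means were 50.4 ± 3.55% in WT and 47.1 ± 6.85% in cKO (SD, n = 3 each), a difference of 3.34 percentage points that is smaller than the spread within cKO. The EDA share of the listed full-length coding TPM was thus close to even in libraries whose Fn1 sum ran from 81.6 to 817 TPM. It leaves out Fn1-216, which lacks EDA, so it is not a measure of EDA inclusion over all isoforms. With Fn1-202 counted as lacking EDA, an alternative chosen after the values were seen, the mean over the 6 libraries was 22.0% in place of 48.8%.

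The long V exon took 24.4%, 44.9% and 39.8% of the listed full-length coding TPM in WT and 25.4%, 31.0% and 35.3% in cKO. WT 2 and WT 3, the libraries with the most Fn1, had the highest shares, and WT 1 the lowest. The middle form took 61.3 ± 8.40% in WT and 68.4 ± 6.57% in cKO (SD, n = 3 each), and the short form 4.89% or less in each library. Within the middle forms, Fn1-217 took 40.4%, 29.99% and 29.7% of the full-length coding TPM in WT and 45.9%, 52.4% and 32.7% in cKO. In cKO 2, which had the highest share of Fn1-217, Fn1-203 took 2.72%, against 12.4% to 20.3% in the other libraries. Whether the division of reads among near-identical isoforms has a part in this was not tested.

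**Figure D4:**
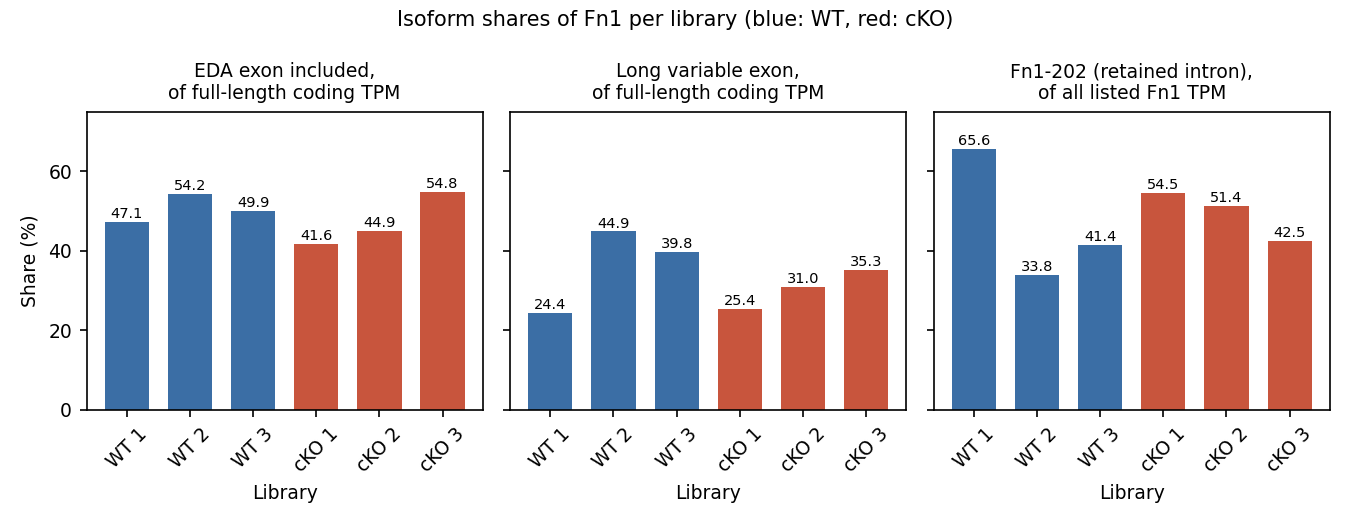
Share of EDA-containing isoforms and of the long V exon in the listed full-length coding TPM, and share of Fn1-202 in all listed Fn1 TPM, per library, with WT in blue and cKO in red. EDA shares lie between 41.6% and 54.8% in all libraries, and the Fn1-202 share is highest in WT 1 at 65.6% and lowest in WT 2 at 33.8%.

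Fn1-202 accounted for 65.6%, 33.8% and 41.4% of all listed Fn1 TPM in WT and for 54.5%, 51.4% and 42.5% in cKO. The means, 46.9 ± 16.6% and 49.4 ± 6.22% (SD, n = 3 each), differed by less than the spread in either genotype. The share was lowest in the pair of libraries with the most Fn1, WT 2 and WT 3. Weighted by length over the 14 reference transcripts, which is closer to a share of reads, Fn1-202 took 25.2% in WT 2 and 56.7% in WT 1, and 38.9% on average over the 6 libraries. Retained intron transcripts together held 36.0% to 66.6% of listed Fn1 TPM per library, against 15.3% to 18.6% of the listed reference TPM of all other genes. Whether transcripts outside the table would alter these shares was not tested.

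The Fn1 transcripts varied together over the libraries. Over the 45 pairs of tested Fn1 transcripts, the Pearson correlation of log2(TPM + 1) across 6 libraries had a median of 0.92 and ran from 0.57, for Fn1-217 and Fn1-213, to 0.99. When WT 2 was left out, these pairs had a median of 0.74 and a minimum of 0.11. These transcripts share exons, libraries and the division of reads, so the correlation is a description only. Fn1 had 10 tested transcripts, against 6 at most in any other gene. In 40 other genes with at least 3 tested transcripts, the median over genes of the same measure was 0.14, and 5 of the 40 reached the value of Fn1 or more. All tested transcripts were lower in cKO in 12 of these 40 genes, all were higher in 7, and 21 had both directions.

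The genes around fibronectin were described from lists, beginning with its receptors, which are mainly integrins and syndecans. Of 19 receptor genes, 14 were listed with 35 transcripts. Of these, 22 were lower in cKO, where 60.6% of all listed transcripts were lower. Only 2 transcripts passed the filter, both lower in cKO, and limma called 0 of them. Itgav, the alphav integrin subunit, reached 4.39, 16.4 and 8.52 TPM in the WT libraries and 1.13, 5.33 and 2.96 TPM in the cKO libraries. WT 1 lay below cKO 2. Sdc2, a heparan sulphate proteoglycan of the cell surface, had 1.72, 4.77 and 3.18 TPM across WT 1 to 3 and 0.59, 1.64 and 1.38 TPM across cKO 1 to 3, and its groups did not overlap. The listed transcripts of Itga5, Itgb1 and Itga4, other fibronectin receptor subunits, stayed under the filter.

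Matrix proteins that bind or co-assemble with fibronectin were likewise highest in WT 2 with 1 exception. All 22 tested transcripts of 19 such genes had a lower mean in cKO, with a median log2 difference of -1.30 against -0.39 for all tested transcripts. WT 2 was the highest library in 21 of the 22, against 30.7% of the 2040 tested transcripts of genes other than Fn1. In 13 of the 22 the groups did not overlap, against 22.9% of all tested transcripts that were lower without overlap. Limma called 0 of them. The authors' deposited table calls the transcript of the basement membrane gene Nid1, named here after its value was seen, at an adjusted p of 0.0493 and a log2 ratio of -2.07. Over all tested transcripts that table calls 1.51%. Nid1 was under 1 TPM in every cKO library and passed the filter through the WT libraries alone, so its direction follows from the filter. Tgm2, the transglutaminase that crosslinks fibronectin, reached 54.9, 193 and 79.9 TPM in the WT libraries and 28.6, 46.0 and 44.3 TPM in the cKO libraries, with every WT library above every cKO library. Col6a1, of the microfibrillar collagen VI, had 23.3, 134 and 54.0 TPM across WT 1 to 3 and 6.71, 21.9 and 20.8 TPM across cKO 1 to 3. Sparc, which encodes a collagen-binding matricellular protein, averaged 61.9 ± 52.1 TPM over the WT libraries and 23.6 ± 10.5 TPM over the cKO libraries (SD, n = 3 each), also without overlap. An assembled transcript of Col1a2, of collagen I, reached 16.6, 146 and 50.0 TPM in the WT libraries and 5.32, 18.3 and 15.2 TPM in the cKO libraries, where WT 1 lay below cKO 2. Unlike Fn1, Tgm2, Col6a1 and Sparc thus had WT 1 above the cKO range; the difference in this between genes was not tested.

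Proteases and their inhibitors went in both directions. Of 9 tested transcripts, 6 were lower and 3, of Mmp12 (2 transcripts) and the cathepsin gene Ctsl, higher in cKO, with a median of -0.88, and limma called 0. Mmp12, the macrophage elastase, which also cuts fibronectin, had 56.5, 36.6 and 44.0 TPM across WT 1 to 3 and 402, 57.7 and 613 TPM across cKO 1 to 3. Its groups did not overlap, but cKO 2 lay just above WT 1. Mmp14, a membrane-bound collagenase, reached 5.04, 22.4 and 12.5 TPM in the WT libraries and 3.49, 4.72 and 3.93 TPM in the cKO libraries. Timp3, a matrix-bound inhibitor of metalloproteases, averaged 10.5 ± 9.63 TPM over the WT libraries and 2.79 ± 1.45 TPM over the cKO libraries, and Serpinb2, an inhibitor of plasminogen activators, 5.49 ± 5.19 and 1.88 ± 0.14 TPM (SD, n = 3 each). Both overlapped between the genotypes.

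Regulators of fibronectin splicing gave 9 tested transcripts of 6 genes, 6 lower and 3 higher, with a median of -0.81 and 0 called by limma. Without WT 2 the median was -0.31. The highest of them, a transcript of the splicing activator Tra2b, had 3.51, 12.4 and 9.63 TPM across WT 1 to 3 and 0, 10.4 and 0.66 TPM across cKO 1 to 3, so that cKO 2 lay within the WT range. The 3 higher ones were of Clk1, Mbnl2 and Hnrnpk, and the last pair also had transcripts that were lower. Mbnl2 encodes a splicing factor, Hnrnpk an RNA-binding protein, and Celf1 a further splicing factor, whose transcript averaged 1.87 ± 1.30 TPM over the WT libraries and 0.73 ± 0.33 TPM over the cKO libraries (SD, n = 3 each).

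Of 8 tested transcripts of transcriptional regulators of Fn1 and of TGF-beta signalling, 7 were lower, with a median of -0.84, and limma called 0. The authors' deposited table calls that of Gata6, which encodes a factor that sets the identity of resident peritoneal macrophages, at an adjusted p of 0.0267. Over all tested transcripts that table calls 1.51%. Gata6 reached 2.57, 9.27 and 5.10 TPM in the WT libraries and 0.89, 1.74 and 0.52 TPM in the cKO libraries, without overlap. Tgfb3, a TGF-beta ligand, had 1.43, 4.85 and 2.47 TPM across WT 1 to 3 and 0.30, 0.78 and 0.99 TPM across cKO 1 to 3, also without overlap. It passed the filter through the WT libraries alone, so its direction and lack of overlap follow from the filter. The 1 higher transcript was an assembled one of the receptor gene Tgfbr2, with means of 2.34 ± 1.29 TPM over the WT libraries and 4.32 ± 0.93 TPM over the cKO libraries (SD, n = 3 each). Egr1, an immediate early transcription factor gene, reached 0.80, 4.68 and 2.51 TPM in the WT libraries and 0.69, 1.05 and 0.78 TPM in the cKO libraries, with WT 1 inside the cKO range as for Fn1.

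Adaptors that join integrins to actin gave 9 tested transcripts, 7 lower and 2, of Rhoa and Ilk, higher, with a median of -1.14 that became -0.80 without WT 2. Limma called 0. The authors' deposited table calls an assembled transcript of Ptk2, the focal adhesion kinase gene, at an adjusted p of 2.7e-07, and it is named here after its value was seen. WT 1 to 3 had 1.14, 1.63 and 1.12 TPM of it, and all 3 cKO libraries list it at 0. This transcript thus passed the filter through the WT libraries alone, close to the threshold, and its direction follows from the filter. Over all tested transcripts the deposited table calls 1.51%. Vcl, which encodes vinculin, had 6.28, 17.1 and 13.3 TPM across WT 1 to 3 and 3.15, 4.6 and 3.9 TPM across cKO 1 to 3. Zyx, which encodes the focal adhesion protein zyxin, reached 7.56, 6.29 and 6.60 TPM in the WT libraries and 2.15, 0 and 2.38 TPM in the cKO libraries. Neither overlapped, and for Zyx WT 2 was the lowest WT library. Fermt2, an integrin activator, averaged 5.32 ± 2.36 TPM over the WT libraries and 1.65 ± 0.77 TPM over the cKO libraries, and the actin crosslinker Actn1 5.49 ± 6.27 and 1.38 ± 1.26 TPM (SD, n = 3 each).

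Target genes of IL-4 and IL-13, a list without Fn1, had 12 of 13 tested transcripts lower, with a median of -1.0, 10 of the 13 without overlap, and 0 called by limma. Of all tested transcripts, 50.6% were lower and 22.9% lower without overlap. The 13 transcripts were of 9 genes, with 3 each of Arg1 and Myc. Tgm2, given above as a matrix partner, is on this list too. The arginase gene Arg1 had 1690, 2633 and 2599 TPM across WT 1 to 3 and 655, 726 and 1067 TPM across cKO 1 to 3. Here WT 1 stood clear of the cKO libraries and WT 2 hardly above WT 3, in contrast to the order within Fn1. Matk, a kinase gene, averaged 6.88 ± 0.79 TPM over the WT libraries and 2.28 ± 0.85 TPM over the cKO libraries (SD, n = 3 each), and the adhesion gene Cdh1 4.28 ± 2.64 and 1.58 ± 0.29 TPM, both without overlap. The 1 higher transcript was of Egr2, a transcription factor gene, at 1.72, 0 and 0 TPM in the WT libraries and at 1.85, 3.09 and 4.01 TPM in cKO.

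Summed markers of other cell types that make fibronectin were, like Fn1, highest in WT 2 and next in WT 3. For scale, WT 2 was the highest library in 30.7% of the 2040 tested transcripts of genes other than Fn1. Of 10 fibroblast markers, 8 were listed, and their summed TPM was 37.4, 410 and 109 in WT and 13.6, 45.2 and 38.6 in cKO. As for Fn1, WT 2 was highest, WT 3 next, and WT 1 within the cKO range. Most of this sum came from Col1a1, Col1a2 and Col3a1, at 123, 150.5 and 115.5 TPM in WT 2, which are also on the list of matrix partners. Some other fibroblast markers had other orders. Pdgfra had 5.46 TPM in WT 1 and at most 3.95 TPM in cKO, and Postn was listed at 0 in WT 3 and at 0.71 to 0.90 TPM in cKO. Thy1 and Dcn were highest in WT 3, at 0.97 and 0.14 TPM. Of 11 mesothelial markers, 10 were listed, and their sum was 27.2, 106 and 44.4 TPM in WT and 7.62, 22.0 and 24.0 TPM in cKO, with WT 1 just above cKO 3. The defining collagen gene Col1a1 reached 3.51, 123 and 15.8 TPM in the WT libraries and 1.37, 4.80 and 3.79 TPM in the cKO libraries. The mesothelial genes Upk3b, Lrrn4 and Wt1 were above 0 in every library, while Msln was at 0.89 TPM or less and the fibroblast gene Dcn at 0.14 TPM or less. Tested transcripts were lower in 5 of 5 cases for fibroblast and 7 of 7 for mesothelial markers, with medians of -1.73 and -1.10, also in all of these cases without WT 2, with medians of -1.11 and -0.71.

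Markers of large peritoneal macrophages, taken without Fn1, likewise had their highest sum in WT 2. It was 4.74, 17.9 and 8.45 TPM in WT and 3.13, 4.23 and 3.61 TPM in cKO. Gata6, which is also on the list of transcriptional regulators above, gave 10.2 TPM of the sum in WT 2, and Rarb and Selp were also highest there. Other members had other orders. Icam2 was highest in cKO 1, at 0.88 TPM, and Prg4 in cKO 2, at 1.29 TPM, and Garnl3 was at 0.86 TPM in both WT 2 and cKO 3. The summed general macrophage markers had another order, with sums of 371, 193 and 269 TPM in WT and 897, 229 and 852 TPM in cKO, but this was the order of Tyrobp, which makes up nearly all of the sum. The other 3 listed genes had higher means in WT. Adgre1 stood at 5.19, 12.7 and 10.2 TPM in WT against 1.12, 4.16 and 3.82 TPM in cKO, and Itgam at 1.21, 1.38 and 0.28 TPM against 0.09, 0.20 and 0.20 TPM, both highest in WT 2. Csf1r, the receptor for macrophage colony-stimulating factor, was highest in WT 3, at 6.49 TPM, and next in WT 2, at 3.64 TPM. The part that the share of other cells, or any other cause, has in the level of Fn1 was not tested.

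**Figure D5:**
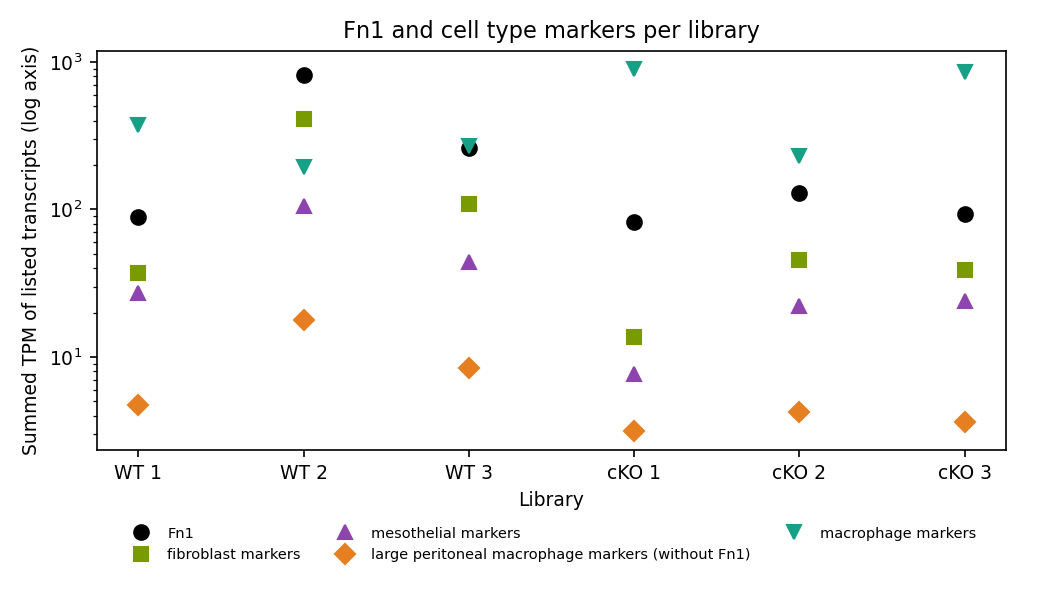
Summed TPM of listed transcripts of Fn1 and of 4 marker lists in each library, on a log axis. The sums of Fn1 and of fibroblast, mesothelial and large peritoneal macrophage markers are highest in WT 2 and second highest in WT 3. The sum of general macrophage markers, nearly all of it Tyrobp, is lowest in WT 2 at 193 TPM.

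Among 2040 tested transcripts of other genes, 112, or 5.49%, had a Pearson correlation of at least 0.95 with the summed Fn1 level over the 6 libraries. The 10 genes with the highest correlation, 1 transcript each, were Wiz, Rnf213, Fosl2, Cad, Peak1, Egr1, Creb3l1, Hip1, Fam168a and Dync1h1, at 0.993 to 0.997. Fosl2 encodes an AP-1 subunit, Creb3l1 a membrane-bound transcription factor, Cad an enzyme of pyrimidine synthesis and Dync1h1 the dynein heavy chain. Creb3l1 had 2.83, 18.9 and 8.10 TPM across WT 1 to 3 and 2.46, 3.24 and 3.00 TPM across cKO 1 to 3. Fosl2 reached 2.00, 12.1 and 4.64 TPM in the WT libraries and 1.63, 3.08 and 1.94 TPM in the cKO libraries. As for Fn1, WT 1 lay within the cKO range in both. WT 2 was the highest library in 30.7% of the compared transcripts, and over 6 libraries 1 high library weighs heavily in a correlation. Without WT 2, 5 of the 10 genes were again among the 10 highest.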

How the data were processed

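Per the labels' protocols, poly(A) RNA was made into stranded libraries and read from both ends. Trimming used fastp, strand-aware alignment HISAT2, and reference-based assembly StringTie, per the labels' protocols. The submitters' processing notes also name RSEM and DESeq2 with no version. The build and annotation they used is not given in the sources used here, and coordinates are left out. The authors deposited TPM per transcript and library, a ratio (fold change) of cKO over WT, its log2 value, and a p-value with its adjusted p-value, per the file headers. The table lists only transcripts at least 2-fold apart, so TPM sums and shares of Fn1 cover listed transcripts. The number of unmatched columns of per-sample values was 0.

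Columns were assigned by their labels. Transcripts with at least 1 TPM in at least 3 of 6 libraries were transformed as log2(TPM + 1), which understates changes of low transcripts, and compared with limma 3.58.1 in R 4.3.3 (variance trend, group as the only term, Benjamini-Hochberg adjustment at 0.05, two-sided) on all 2050 such transcripts. Errors are SD over 3 libraries or, where marked, limma's SE. The limma step was tested on simulated data. The members and gene lists were chosen with earlier results of these data known. Named genes are each Fn1 transcript, the 4 most abundant tested genes of each list, and the 10 genes most like Fn1, without predicted gene models. Exon structures and sequences came from GENCODE M21 (GRCm38) by identifier. All 14 reference identifiers matched. Alternatives covered the replicate block, scaling, pseudocount, filter, summed rows and each library left out. Python 3.11.15, pandas 2.3.3, numpy 2.4.6 and matplotlib 3.10.9 were used.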

Additional observations from a re-analysis of the deposited data

How the results depend on the processing

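The Fn1 sum had a log2 ratio (cKO over WT) of -1.94, and it stayed negative in all alternatives run, from -2.41 to -0.79 with 1 library left out and at -0.51 after median-ratio scaling. The median log2 difference of the tested Fn1 transcripts was -1.94 to -0.46 with 1 library left out, lowest without WT 1 and closest to 0 without WT 2. Limma called 0 transcripts in the main setting, 14 after median-ratio scaling, 3 after quantile normalization and 0 to 4 with 1 library left out, the 4 without cKO 2.

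With the replicate number as a block, limma again called 0, and the median of Fn1 was -1.19 as without it. The deviations of same-numbered libraries correlated at 0.14, -0.14 and -0.11 for numbers 1 to 3, so the numbers were not taken as pairs.

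After median-ratio scaling the list medians were -0.37 for receptors, -0.66 for matrix partners, -0.28 for proteases, -0.29 for splicing regulators, -0.29 for transcriptional regulators, -0.44 for adaptors and -0.27 for IL-4 and IL-13 targets, where all tested transcripts stood at 0.69. Without the filter on low values they were -0.078, -0.39, -0.056, -0.14, -0.12, -0.12 and -0.13 in the same order, where all transcripts stood at -0.046. With a pseudocount of 0.1 they were -1.50 for receptors, -1.89 for matrix partners, -1.35 for proteases, -1.77 for splicing regulators, -1.56 for transcriptional regulators, -1.63 for adaptors and -1.50 for IL-4 and IL-13 targets, where all tested transcripts stood at -0.57. With 1 library left out they ran from -1.48 to -0.79 for receptors, -1.73 to -0.96 for matrix partners, -1.07 to -0.69 for proteases, -1.02 to -0.31 for splicing regulators, -1.14 to -0.72 for transcriptional regulators, -1.24 to -0.80 for adaptors and -1.33 to -0.70 for IL-4 and IL-13 targets. No list median changed sign in the alternatives run, but without the filter each lay closer to the median of all transcripts than in the main setting.

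The Fn1-202 share averaged 48.2% over the 6 libraries and 44.7% to 51.1% with 1 left out. Of the 10 genes most like Fn1, 1 was again among the 10 highest by Spearman's rho, where many transcripts tie, and 5 without WT 2. TPM carry no depth, so the precision of low isoforms is unknown.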
